A study of Mus musculus with 21 samples.

Results

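The genes described here are 10 genes of the interstitial extracellular matrix: Col1a1, Col1a2, Col3a1, Col5a1, Col5a2, Col6a1, Col6a2, Col6a3, Fn1 and Lox. They were taken by name, through the Ensembl identifiers of the deposited tables, from 35598 genes in all, and all 10 had enough reads to be tested. Expression was measured in glomeruli cut by laser microdissection from kidneys of 21 female mice aged 3 months, with 1 library per mouse, to follow the role of podocyte Epac1 in glomerulonephritis. Epac1 is the product of Rapgef3, a cyclic AMP sensor that activates Rap GTPases. Every mouse carried floxed Epac1 alleles (Epac1fl/fl). Those without Cre are called flox. Their littermates, called cKO, also carried a podocyte-specific Cre, so that the other cells of their glomeruli kept Epac1. Control mice received PBS (3 flox, 3 cKO). The others received decomplemented nephrotoxic serum, an antiserum that injures the glomerulus, by vein on 2 successive days, and were taken early, at day 4 (3 flox, 4 cKO), or late, at day 11 (4 flox, 4 cKO).

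Collagens are triple helices of 3 chains. Types I and III build the load-bearing fibrils of connective tissue, type V chains help to start those fibrils and set their width, and type VI chains form beaded microfibrils close to cells. Fibronectin, encoded by Fn1, is a glycoprotein on which newly secreted collagen is assembled, and lysyl oxidase, encoded by Lox, crosslinks collagen and elastin outside the cell. In a healthy glomerulus the main collagen is the type IV network of the basement membrane, and interstitial collagens gather there during scarring.

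Library totals lay between 4550550 and 24295712 reads (median 19470098), and 7871 to 13006 genes had reads. Values are CPM (reads of a gene scaled to a common library size) with TMM scaling, a trimmed mean that sets libraries on a common scale, and since the kit reads only the end of each transcript, levels were compared within a gene and not between genes. Rapgef3 had 124 to 347 CPM (median 211) in the 10 flox libraries and 63.4 to 199.5 CPM (median 145) in the 11 cKO libraries, so the ranges overlapped. All 6 podocyte markers had reads in every group, summing to 2764 to 5918 CPM per library. Markers of proximal tubule (379 to 5097 CPM per library) and distal tubule (287 to 3684 CPM per library) also had reads in every group. A library with 0 reads of a gene allows up to 3 reads, which is 0.12 to 0.66 CPM depending on its total and covers counting error only. In flox day 11 replicate 1 the 10 genes summed to 662 CPM, against 1793 to 1919.7 CPM in the other 3 libraries of that group. The day 11 averages of Col3a1 and Col1a2, and the medians of the day 11 average and of flox at day 11, are also given without it. Other results are given with it, or as counts and ranges over single libraries left out. Lox was the highest of its group in that library (20.3 CPM). The library was set apart by the low sum of these same genes, so leaving it out raises most of their day 11 values. A pass without it is therefore no separate support.

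All 10 genes were higher at day 11 than under PBS when both genotypes were averaged, and none passed the test at an adjusted p under 0.05. The median log2 fold change was 1.71 (range 0.98 to 3.23), against a median of 0.07 over all 13898 genes tested, of which 52.9% were above 0. By edgeR's quasi-likelihood test with Benjamini-Hochberg adjustment 0 of the 10 were called, as 0.122% of all genes were. Col3a1, Col1a2, Col1a1 and Col6a2 had an unadjusted p under 0.05, and 6.17% of all genes had such a p with a higher level. DESeq2 called these 4 (7.95% of the genes it tested). Without flox day 11 replicate 1 the median log2 fold change of the 10 was 1.83. At day 4, by contrast, only 7 of the 10 were above 0 in the average, with a median of 0.25, against 0.01 and 50.5% for all genes. Of the 10 edgeR called 0 at day 4 (0.0216% of all genes), 1 of them, Col3a1, had an unadjusted p under 0.05 (5.36% of all genes, higher), and DESeq2 called 0 (9.07%). In these bulk libraries more cells of a type and more RNA per cell cannot be told apart.

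**Figure D1:**
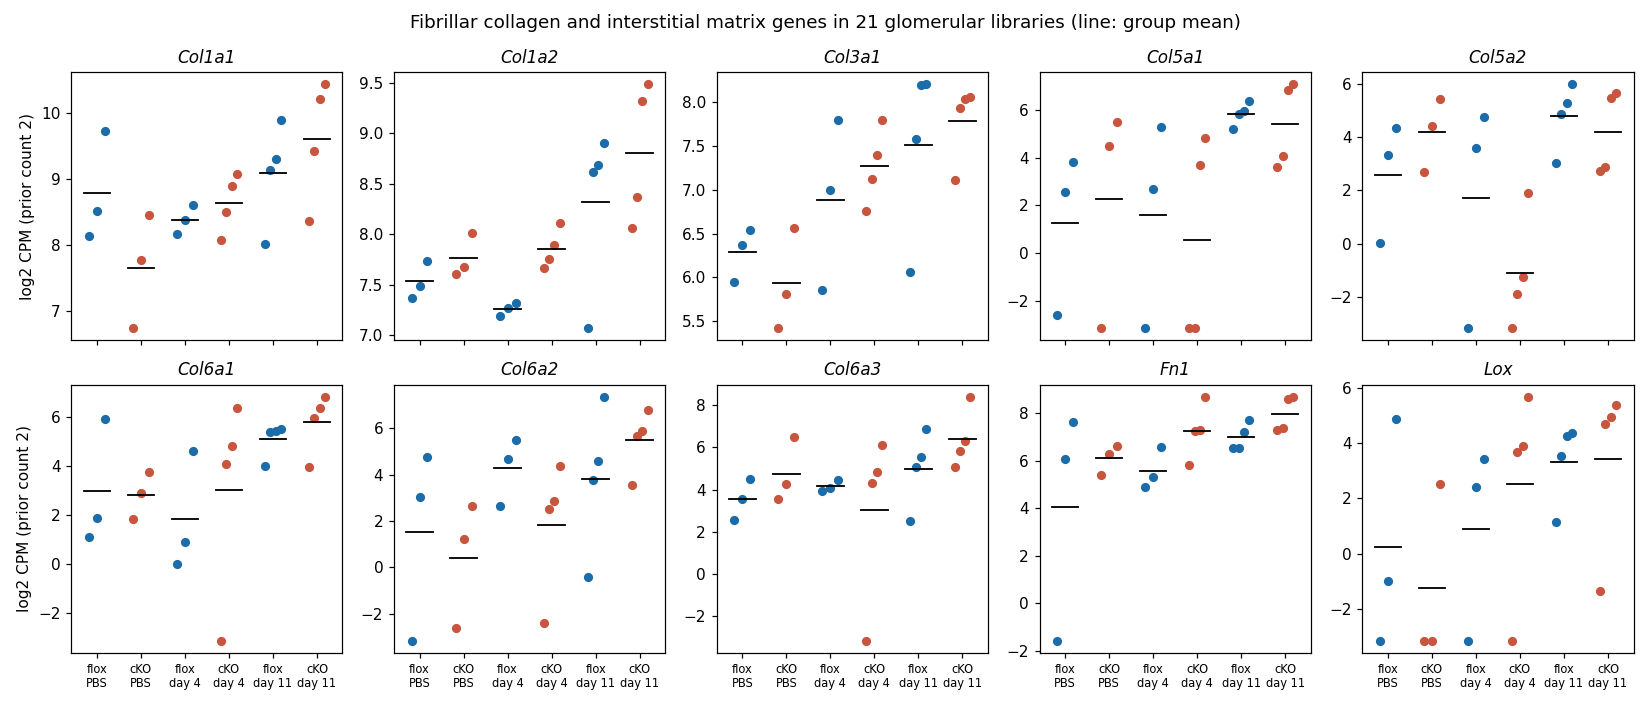
CPM of each of the 10 genes in every library, on a log2 axis of CPM with a small prior count, by group (flox and cKO under PBS, at day 4 and at day 11). Each point is 1 mouse and the short bar is the group mean; the 8 day 11 libraries of Col3a1 reach 295 CPM while its 6 PBS libraries stop at 95.2 CPM.

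**Figure D2:**
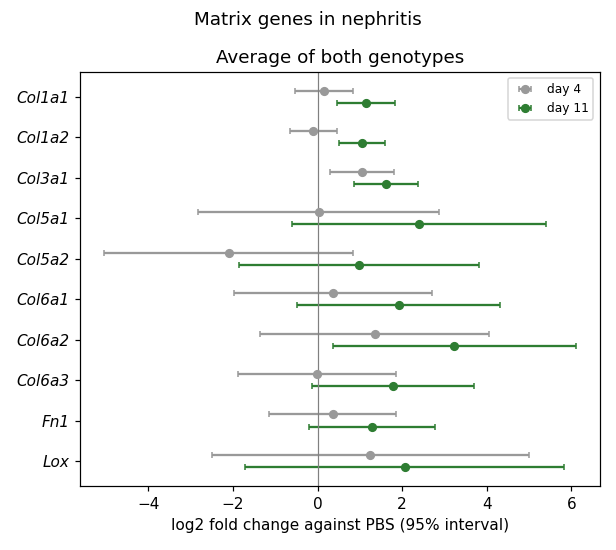
Log2 fold change of each gene against PBS, averaged over both genotypes, at day 4 and day 11, with bars for the 95% interval. The day 11 points run from 0.98 (Col5a2) to 3.23 (Col6a2), and the intervals of Col1a1, Col1a2, Col3a1 and Col6a2 stay above 0 before adjustment.

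Col3a1 (ENSMUSG00000026043.18; GRCm38 chromosome 1, 45311538 to 45349706, plus strand) encodes the type III chain, which forms a homotrimer and often shares fibrils with type I. Under PBS it had 61.5, 92.7 and 82.5 CPM in flox and 55.9, 42.7 and 95.2 CPM in cKO. At day 4 Col3a1 had 223, 57.8 and 128 CPM in flox and 168.4, 222, 139.9 and 107.9 CPM in cKO. At day 11 Col3a1 had 66.4, 191, 295 and 294 CPM in flox and 138, 262, 246 and 266 CPM in cKO. In cKO both day 4 and day 11 lay wholly above PBS, while in flox 1 library of each stage (57.8 and 66.4 CPM) lay below or within the range of the PBS libraries. Its exons overlap those of Gm47302 on the same strand, and how such reads were assigned is not given in the sources used here. For Col3a1 the log2 fold change at day 11 was 1.42 ± 0.51 in flox (SE, adjusted p = 0.58) and 1.82 ± 0.52 in cKO (adjusted p = 0.65). Averaged, it was 1.62 ± 0.37 (adjusted p = 0.067), a fold of 3.08 with a 95% interval of 0.87 to 2.37 on the log2 scale. It passed the threshold without flox day 11 replicate 1, its lowest day 11 library (1.77 ± 0.34, adjusted p = 0.014), and without cKO day 4 replicate 3 (1.62 ± 0.36, adjusted p = 0.043). It also passed with no filter on low counts (adjusted p = 0.017), with only the compared groups in the fit (adjusted p = 0.041) and by DESeq2 (adjusted p = 0.0002). For Col3a1 at day 4 it was 0.79 ± 0.53 in flox (adjusted p = 0.79), 1.30 ± 0.51 in cKO (adjusted p = 0.60) and 1.05 ± 0.37 averaged (adjusted p = 0.38). The flox value was 0.23 without flox day 4 replicate 1 and 1.15 without replicate 2. Col3a1 had the smallest adjusted p of the 10 genes in both averages.

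Col1a2 (ENSMUSG00000029661.16; chromosome 6, 4504814 to 4541544, plus strand) encodes the alpha 2 chain of type I collagen, 1 of which joins 2 alpha 1 chains in the usual heterotrimer. Under PBS it had 214, 165 and 179.9 CPM in flox and 205, 195 and 257 CPM in cKO. At day 4 Col1a2 had 146, 159.9 and 154 CPM in flox and 217, 276, 236 and 203.6 CPM in cKO. At day 11 Col1a2 had 134, 393, 482 and 413 CPM in flox and 331, 719, 267 and 641 CPM in cKO. Every day 11 library but flox replicate 1 lay above every PBS library, and the 3 flox day 4 libraries lay below the 3 flox PBS libraries. For Col1a2 the log2 fold change at day 11 was 0.93 ± 0.38 in flox (SE, adjusted p = 0.58) and 1.16 ± 0.38 in cKO (adjusted p = 0.81). Averaged, it was 1.05 ± 0.27 (adjusted p = 0.15), and without flox day 11 replicate 1, its lowest day 11 library, it passed the threshold at 1.18 ± 0.24 (adjusted p = 0.027). For Col1a2 at day 4 it was −0.28 ± 0.40 in flox, 0.09 ± 0.37 in cKO and −0.10 ± 0.27 averaged (adjusted p = 1 for each), all below the day 11 values.

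The start regions of Col1a2 and Col3a1 are shown because these 2 genes had the smallest adjusted p at day 11 and varied together across libraries. They are RefSeq windows of 300 bases, 250 before to 50 after the annotated start (GRCm38.p6), chr6:4505368-4505667 on the plus strand for Col1a2 and chr1:45311288-45311587 on the plus strand for Col3a1, written 5′ to 3′. Capitals mark the CCAAT box, a common promoter element, and CAGACA, which holds the CAGA core bound by Smad proteins, each also as its reverse complement (ATTGG and TGTCTG).
Col1a2: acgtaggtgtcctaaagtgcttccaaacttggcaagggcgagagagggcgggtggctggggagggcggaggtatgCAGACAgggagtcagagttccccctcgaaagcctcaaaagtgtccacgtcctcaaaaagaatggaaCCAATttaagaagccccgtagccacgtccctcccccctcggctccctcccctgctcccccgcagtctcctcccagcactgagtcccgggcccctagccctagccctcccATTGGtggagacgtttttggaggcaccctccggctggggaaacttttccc
Col3a1: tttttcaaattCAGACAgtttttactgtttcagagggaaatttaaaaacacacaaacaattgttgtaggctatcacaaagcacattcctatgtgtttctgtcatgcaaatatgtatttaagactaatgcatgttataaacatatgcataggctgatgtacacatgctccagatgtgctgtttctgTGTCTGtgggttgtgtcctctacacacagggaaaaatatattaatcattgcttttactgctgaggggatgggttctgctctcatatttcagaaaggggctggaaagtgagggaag
The Col1a2 window held 2 CCAAT matches and 1 CAGACA match, and its GC content was 61%. The Col3a1 window held 0 CCAAT matches and 2 CAGACA matches, with a GC content of 37.7%. Of 32851 such windows of mouse genes, 37.4% held CCAAT and 21% held CAGACA on either strand. Windows were matched for 6 of the 10 genes. Among the other 4 of these, Col5a1 held 1 CAGACA match, and Col6a1, Col6a2 and Col6a3 held neither motif. A match is a run of letters and was not tested as a binding site.

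Col1a1 (ENSMUSG00000001506.10; chromosome 11, 94936224 to 94953042, plus strand) encodes the alpha 1 chain of type I collagen. Under PBS it had 850.3, 364 and 279.6 CPM in flox and 107, 219.8 and 349 CPM in cKO. At day 4 Col1a1 had 333, 288 and 388 CPM in flox and 363, 477, 268 and 537 CPM in cKO. At day 11 Col1a1 had 257, 958, 564 and 636 CPM in flox and 331, 1185, 691 and 1387 CPM in cKO. The first flox PBS mouse was higher than every flox day 4 library and all but 1 flox day 11 library, whereas in cKO 3 of 4 day 11 libraries were above all PBS libraries. At day 11 the log2 fold change was 0.28 ± 0.46 in flox (SE, adjusted p = 1), 2.00 ± 0.49 in cKO (adjusted p = 0.34) and 1.14 ± 0.33 averaged (adjusted p = 0.31). The flox value turned to −0.04 without flox day 11 replicate 2, and the cKO value passed the threshold without cKO day 11 replicate 1 (2.26 ± 0.45, adjusted p = 0.046). That library was the lowest in Col1a1 of its group, so leaving it out raises the value. For Col1a1 at day 4 it was −0.57 ± 0.49 in flox (adjusted p = 1), 0.87 ± 0.47 in cKO (adjusted p = 0.66) and 0.15 ± 0.33 averaged (adjusted p = 1), and the flox value turned to 0.04 without flox PBS replicate 1. Both type I chains had their highest library medians at day 11.

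The type V chains were low and patchy. Col5a1 (ENSMUSG00000026837.16; chromosome 2, 27886425 to 28039514, plus strand) encodes the alpha 1 chain, present in nearly all type V trimers. It had 0.0526, 5.80 and 14.2 CPM in flox PBS and 22.2, 0 and 45.1 CPM in cKO PBS. At day 4 Col5a1 had 39.1, 6.35 and 0 CPM in flox and 28.2, 0, 0 and 12.9 CPM in cKO. At day 11 Col5a1 had 36.8, 57.2, 61.8 and 83.7 CPM in flox and 16.5, 116, 12.1 and 137 CPM in cKO. No day 11 library was at 0, and all flox day 11 libraries were above all flox PBS libraries. For Col5a1 the log2 fold change at day 11 was 3.16 ± 2.17 in flox (SE, adjusted p = 0.79), 1.65 ± 2.01 in cKO (adjusted p = 1) and 2.41 ± 1.47 averaged (adjusted p = 0.73). For Col5a1 at day 4 it was 1.18 ± 2.08 in flox, −1.13 ± 1.90 in cKO and 0.03 ± 1.40 averaged (adjusted p = 1 for each), and the flox value turned to −1.11 without flox day 4 replicate 1. Its exons overlap 2810430I11Rik and Gm13372 on the opposite strand, and the strand setting of the counting is not given in the sources used here.

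Col5a2 (ENSMUSG00000026042.16; chromosome 1, 45374321 to 45503282, minus strand) encodes the alpha 2 chain of type V. It lies next to Col3a1, in the opposite orientation, with 24614 bases and 0 annotated genes between them. Under PBS it had 0.895, 20 and 9.96 CPM in flox and 42.5, 6.41 and 21.1 CPM in cKO. At day 4 Col5a2 had 11.8, 0 and 26.5 CPM in flox and 3.59, 0.155, 0 and 0.311 CPM in cKO. At day 11 Col5a2 had 8.06, 63.1, 29.0 and 38.8 CPM in flox and 6.45, 7.19, 44.3 and 49.5 CPM in cKO. It was the gene of the set with an early dip in cKO: all 4 cKO day 4 libraries were below all 3 cKO PBS libraries and below all 4 cKO day 11 libraries. The log2 fold change in cKO at day 4 was −4.51 ± 2.11 (SE, adjusted p = 0.60), and DESeq2 called it (−4.53, adjusted p = 0.045). In flox at day 4 it was 0.31 ± 2.06 (adjusted p = 1), turning to −0.24 without flox PBS replicate 1 and to −0.80 without flox day 4 replicate 3, and the day 4 average was −2.10 ± 1.45 (adjusted p = 0.79). For Col5a2 at day 11 it was 1.76 ± 2.03 in flox, 0.20 ± 1.93 in cKO and 0.98 ± 1.39 averaged (adjusted p = 1 for each), with the cKO value at −0.26, −0.15 and −0.28 without cKO PBS replicate 2, cKO day 11 replicate 3 and cKO day 11 replicate 4. Neighbouring Col3a1 was higher than PBS in those same cKO day 4 libraries.

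The 3 type VI chains assemble into 1 heterotrimer before secretion, and the fitted log2 fold change at day 11 was above 0 for all 3 in both genotypes, with 0 called by edgeR. Col6a1 (ENSMUSG00000001119.7; chromosome 10, 76708792 to 76726168, minus strand) and Col6a2 (ENSMUSG00000020241.13; chromosome 10, 76595762 to 76623630, minus strand) lie on the same strand, 85161 bases apart with 1 annotated gene between them. Col6a3 (ENSMUSG00000048126.16; chromosome 1, 90765923 to 90843971, minus strand) encodes the largest of these 3 chains. Under PBS Col6a1 had 3.58, 2.04 and 61.2 CPM in flox and 3.44, 13.4 and 7.30 CPM in cKO. At day 4 Col6a1 had 1.76, 24.8 and 0.881 CPM in flox and 83.7, 0, 28.1 and 17 CPM in cKO. At day 11 Col6a1 had 41.9, 16.1, 46.1 and 43.9 CPM in flox and 15.6, 83.5, 62.5 and 115 CPM in cKO. All cKO day 11 libraries of Col6a1 were above all cKO PBS libraries, while 1 flox PBS library exceeded every flox day 11 library. For Col6a1 the log2 fold change at day 11 was 0.73 ± 1.59 in flox (SE, adjusted p = 1), 3.10 ± 1.76 in cKO (adjusted p = 0.89) and 1.92 ± 1.18 averaged (adjusted p = 0.73). For Col6a1 at day 4 it was −1.28 ± 1.70 in flox, 2.00 ± 1.67 in cKO and 0.36 ± 1.15 averaged (adjusted p = 1 for each), and the flox value turned to 1.68 without flox PBS replicate 3.

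Col6a2 had 8.05, 26.8 and 0 CPM in flox PBS and 0.0522, 6.16 and 2.24 CPM in cKO PBS. At day 4 Col6a2 had 45.1, 6.06 and 25.7 CPM in flox and 20.6, 5.59, 0.0769 and 7.16 CPM in cKO. At day 11 Col6a2 had 0.65, 13.4, 163 and 23.7 CPM in flox and 51.3, 58.6, 11.6 and 109.8 CPM in cKO. The cKO day 11 libraries all lay above the cKO PBS libraries, and the flox day 11 libraries spread from below 1 CPM to the highest value of the gene. For Col6a2 the log2 fold change at day 11 was 2.11 ± 1.89 in flox (SE, adjusted p = 0.97), 4.36 ± 2.12 in cKO (adjusted p = 0.81) and 3.23 ± 1.41 averaged (adjusted p = 0.46). DESeq2 called the Col6a2 average (3.24, adjusted p = 0.042). For Col6a2 at day 4 it was 1.14 ± 1.90 in flox (adjusted p = 1), 1.56 ± 1.85 in cKO (adjusted p = 1) and 1.35 ± 1.32 averaged (adjusted p = 0.97). The interval of the day 11 average, 0.36 to 6.11 on the log2 scale, was the widest of the 4 genes with an unadjusted p under 0.05.

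Col6a3 had 11.8, 5.75 and 22.5 CPM in flox PBS and 11.4, 18.9 and 88.6 CPM in cKO PBS. At day 4 Col6a3 had 15.1, 16.7 and 21.9 CPM in flox and 28.8, 19.5, 0 and 67.8 CPM in cKO. At day 11 Col6a3 had 5.52, 33.5, 117 and 46.1 CPM in flox and 33.3, 56.9, 78.8 and 334 CPM in cKO. Day 11 and PBS overlapped in both genotypes, through flox day 11 replicate 1 and cKO PBS replicate 3. For Col6a3 the log2 fold change at day 11 was 1.92 ± 1.33 in flox (SE, adjusted p = 0.80), 1.67 ± 1.32 in cKO (adjusted p = 1) and 1.79 ± 0.94 averaged (adjusted p = 0.59). For Col6a3 at day 4 it was 0.42 ± 1.34 in flox, −0.45 ± 1.25 in cKO and −0.01 ± 0.92 averaged (adjusted p = 1 for each), and the cKO value turned to 0.95 without cKO PBS replicate 3.

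Fn1 (ENSMUSG00000026193.15; chromosome 1, 71585520 to 71653200, minus strand) had 198, 0.221 and 67.4 CPM in flox PBS and 42.8, 77.8 and 97.9 CPM in cKO PBS. The second of these flox libraries held 4 Fn1 reads. At day 4 Fn1 had 39.7, 94.9 and 29.3 CPM in flox and 56.1, 152, 406 and 159 CPM in cKO. At day 11 Fn1 had 91.8, 92.7, 151 and 212 CPM in flox and 166, 417, 156 and 386 CPM in cKO. In cKO every day 11 library was above every PBS library, and in flox the PBS range spanned nearly all other flox values. For Fn1 the log2 fold change at day 11 was 0.63 ± 0.99 in flox (SE, adjusted p = 1), 1.95 ± 1.04 in cKO (adjusted p = 0.84) and 1.29 ± 0.72 averaged (adjusted p = 0.65). For Fn1 at day 4 it was −0.70 ± 1.05 in flox (adjusted p = 1), 1.41 ± 1.02 in cKO (adjusted p = 0.96) and 0.36 ± 0.72 averaged (adjusted p = 1), with the flox value at 0.66 without flox PBS replicate 1. Exons of Fn1 overlap Apol7d on the opposite strand.

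Lox (ENSMUSG00000024529.14; chromosome 18) had 0 reads in 5 of the 21 libraries. Under PBS it had 29.1, 0 and 0.389 CPM in flox and 0, 0 and 5.64 CPM in cKO. At day 4 Lox had 5.28, 10.7 and 0 CPM in flox and 12.7, 51.2, 0 and 14.8 CPM in cKO. At day 11 Lox had 20.3, 19.0, 11.5 and 2.10 CPM in flox and 0.28, 41.6, 30.9 and 25.6 CPM in cKO. All 8 day 11 libraries had reads, against 3 of 6 under PBS, and the single high PBS library was the same flox mouse in which Col1a1 and Fn1 were highest of the PBS libraries. For Lox the log2 fold change at day 11 was 0.43 ± 2.47 in flox (SE), 3.70 ± 2.85 in cKO and 2.06 ± 1.85 averaged (adjusted p = 1 for each), and the flox value turned to −0.16 and −0.13 without flox PBS replicates 2 and 3. For Lox at day 4 it was −0.88 ± 2.64 in flox, 3.38 ± 2.80 in cKO and 1.25 ± 1.84 averaged (adjusted p = 1 for each), with the flox value at 4.69 without flox PBS replicate 1. Exons of Lox overlap AC161119.1 on the opposite strand.

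Taken within each genotype, the fitted day 11 values were above 0 for all 10 genes in both, and edgeR called 0 in either. The genes share the libraries of their genotype, so the 10 signs are not independent. In flox all 10 genes were above 0 at day 11 (53.2% of all genes were), with a median log2 fold change of 1.18 against 0.09 for all genes. EdgeR called 0 of the 10 (0% of all genes), 2 had an unadjusted p under 0.05 (Col3a1 and Col1a2; 5.9% of all genes, higher), and DESeq2 called 0 (8.21%). Without flox day 11 replicate 1 the median was 1.46 and still 0 were called. In cKO all 10 were above 0 (47.5% of all genes), with a median of 1.88 against −0.03. Of the 10 edgeR called 0 (0.0504% of all genes), 4 had an unadjusted p under 0.05 (Col3a1, Col1a2, Col6a2 and Col1a1; 2.59% of all genes, higher), and DESeq2 called Col3a1, Col1a2 and Col1a1 (4.37%). All cKO day 11 libraries were above all cKO PBS libraries for Col3a1, Fn1, Col1a2, Col6a2 and Col6a1 (5 of 10, against 2.75% of all genes), and in flox this held for Col5a1 alone (1 of 10, against 3.86%). At day 4 the flox genes divided evenly, 5 above and 5 below 0 (52.4% of all genes above), with a median of 0.01 against 0.08. EdgeR called 0 of them (0% of all genes), 0 had an unadjusted p under 0.05 (7.93%), DESeq2 called 0 (7.74%), and only Col1a2 did not overlap PBS, being lower (3.87% of all genes). In cKO at day 4, 7 were above 0 (45.4% of all genes), with a median of 1.09 against −0.09. Of these edgeR called 0 (0% of all genes), 2 had an unadjusted p under 0.05, Col3a1 being higher (2.21% of all genes) and Col5a2 lower (5.95%), and DESeq2 called Col5a2 (5.83%). These same 2 genes were the ones whose cKO day 4 and PBS libraries did not overlap (1.37% of all genes higher, 4.76% lower).

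**Figure D3:**
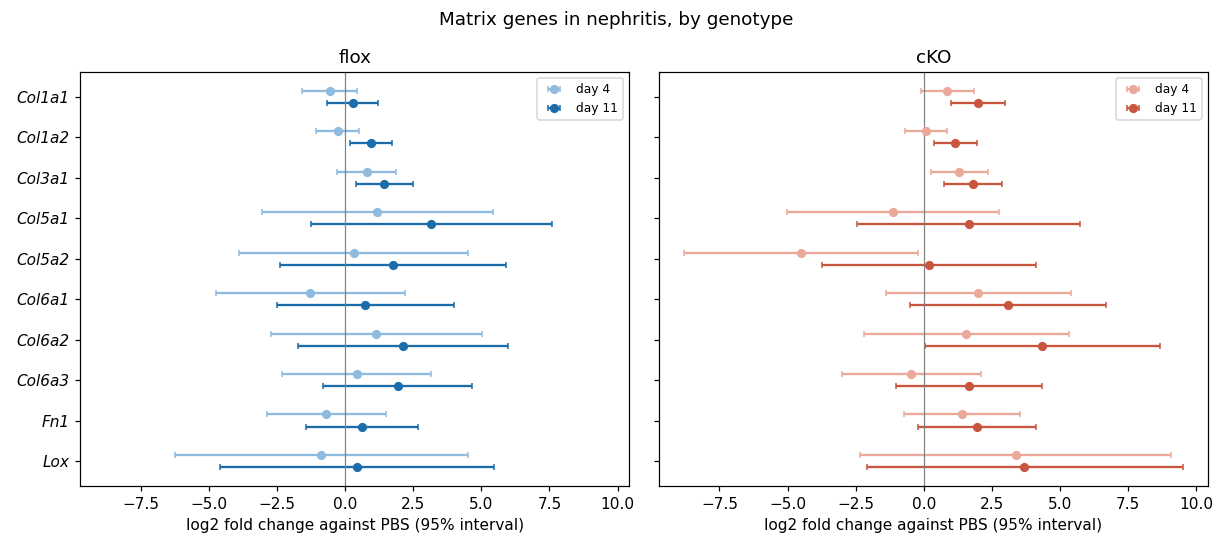
Log2 fold change of each gene against PBS of the same genotype, flox on 1 panel and cKO on the other, at day 4 and day 11, with bars for the 95% interval. All 10 day 11 points are above 0 in both panels, and the widest intervals belong to genes with libraries at 0 reads, such as Lox.

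Between cKO and flox none of the 10 genes differed by an adjusted p under 0.05 at any stage. Under PBS 4 genes were higher and 6 lower in cKO, with a median log2 difference of −0.29 against 0.08 for all genes (52.6% above 0). Calls by edgeR numbered 0 (0% of all genes), Col1a1 alone had an unadjusted p under 0.05 (−1.15 ± 0.49, adjusted p = 0.73; 1.4% of all genes, lower), and DESeq2 called 0 (6.24%). Next came Col6a3 at 1.57 ± 1.37 (adjusted p = 1). Without flox PBS replicate 1, the library highest in Col1a1, the Col1a1 difference was −0.53, and over the other libraries left out in turn it stayed between that and −1.61.

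At day 4, 7 of 10 genes were higher in cKO (45.8% of all genes), with a median of 0.45 against −0.06. With edgeR 0 were called (0% of all genes), 0 had an unadjusted p under 0.05 (7.42%) and DESeq2 called 0 (5.68%). The smallest p belonged to Col5a2 (−3.64 ± 2.04, adjusted p = 0.74) and Fn1 (1.82 ± 1.04, adjusted p = 0.78). Col1a2 was the gene whose 4 cKO libraries (203.6 to 276 CPM) were all above the 3 flox libraries (146 to 159.9 CPM; 1.09% of all genes), a difference of 0.61 ± 0.37 with a 95% interval of −0.16 to 1.37. At day 11, 9 of 10 were higher in cKO (48.1% of all genes), with a median of 0.52 against −0.02. EdgeR called 0 (0% of all genes), 0 had an unadjusted p under 0.05 (5.86%) and DESeq2 called 0 (3.62%). Col1a1 stood at 0.57 ± 0.42 and Col1a2 at 0.46 ± 0.34 (adjusted p = 1 for both), with 95% intervals of −0.30 to 1.44 and −0.24 to 1.16. These intervals include 0 and also include a doubling, so the libraries do not show that the genotypes were alike. With single libraries left out the values ranged from 0.30 to 0.89 (Col1a1) and from 0.19 to 0.66 (Col1a2).

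Whether the response to serum differed between genotypes was tested as an interaction, the log2 fold change in cKO minus that in flox. At day 11, 7 of 10 were above 0 (44.8% of all genes), with a median of 0.86 against −0.20. Calls by edgeR numbered 0 (0% of all genes), Col1a1 alone had an unadjusted p under 0.05 (1.72 ± 0.65, adjusted p = 0.61; 1.83% of all genes, higher), and DESeq2 called 0 (7.01%). Col6a1 came next at 2.37 ± 2.25 (adjusted p = 1) and turned to −0.64 without flox PBS replicate 3. At day 4, 7 of 10 were above 0 (43.5% of all genes), with a median of 0.47 against −0.28. With edgeR 0 were called (0% of all genes), Col1a1 again had an unadjusted p under 0.05 (1.44 ± 0.67, adjusted p = 0.63; 1.93% of all genes, higher), and DESeq2 called 0 (8.31%). Col5a2 followed at −4.82 ± 2.93 (adjusted p = 0.80). For Col1a1 both interactions share the PBS libraries, in which its level was lower in cKO, and without any 1 library they ranged from 1.09 to 2.17 at day 11 and from 0.84 to 1.92 at day 4.

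Between the early and the late stage all 10 genes were higher at day 11 in both genotypes. In flox the median log2 difference from day 4 to day 11 was 1.31, against 0 for all genes (49.9% above 0). EdgeR called 0 (0% of all genes), Col1a2 alone had an unadjusted p under 0.05 (1.21 ± 0.38, adjusted p = 0.96; 2.44% of all genes, higher), and DESeq2 called Col1a2 (3.82%). Col1a1 followed at 0.84 ± 0.47 (adjusted p = 0.99). In cKO the median was 1.12, against 0.06 (52.1% above 0). Calls by edgeR numbered 0 (0% of all genes), Col5a2 (4.71 ± 2.08), Col1a2 (1.07 ± 0.35) and Col1a1 (1.13 ± 0.43) had an unadjusted p under 0.05 (adjusted p = 0.47 for each; 6.55% of all genes, higher), and DESeq2 called Col5a2 and Col1a2 (7.03%). Col5a2 was the gene whose cKO day 11 and day 4 libraries did not overlap (2.52% of all genes). The comparisons of day 11 with PBS and with day 4 share the day 11 libraries.

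Summed over the 10 genes, the level was 683 to 1378 CPM in flox PBS and 490.4 to 969 CPM in cKO PBS. At day 4 it was 665 to 859 CPM in flox and 982 to 1204 CPM in cKO. At day 11 it was 662 to 1919.7 CPM in flox and 1088 to 3452 CPM in cKO. In flox, PBS and day 11 overlapped through day 11 replicate 1 alone. Col1a1 and Col1a2, with the highest mean CPM of the 10 (516 and 285), add most to these sums, which compare libraries and not genes. The spread between mice differed by gene: within groups the SD of log2 CPM was 0.51 for Col1a2, 0.69 for Col3a1 and 0.73 for Col1a1, and from 1.96 (Fn1) to 3.39 (Col5a1) for the other 7. Reads per library of those 3 genes never fell below 874, whereas Lox had 0 reads in 5 libraries, Col5a1 in 4, Col5a2 in 2, and Col6a1, Col6a2 and Col6a3 in 1 each. In cKO day 4 replicate 3 alone 4 of the 10 genes were at 0. This library had the fewest genes with reads (7871) and the highest proximal and distal tubule marker sums (5097 and 3684 CPM). Its mesangial and macrophage marker sums (494 and 73.7 CPM) were the lowest. Fits without this library are among those with libraries left out. The part of its marker levels in the cKO day 4 values was not tested.

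**Figure D4:**
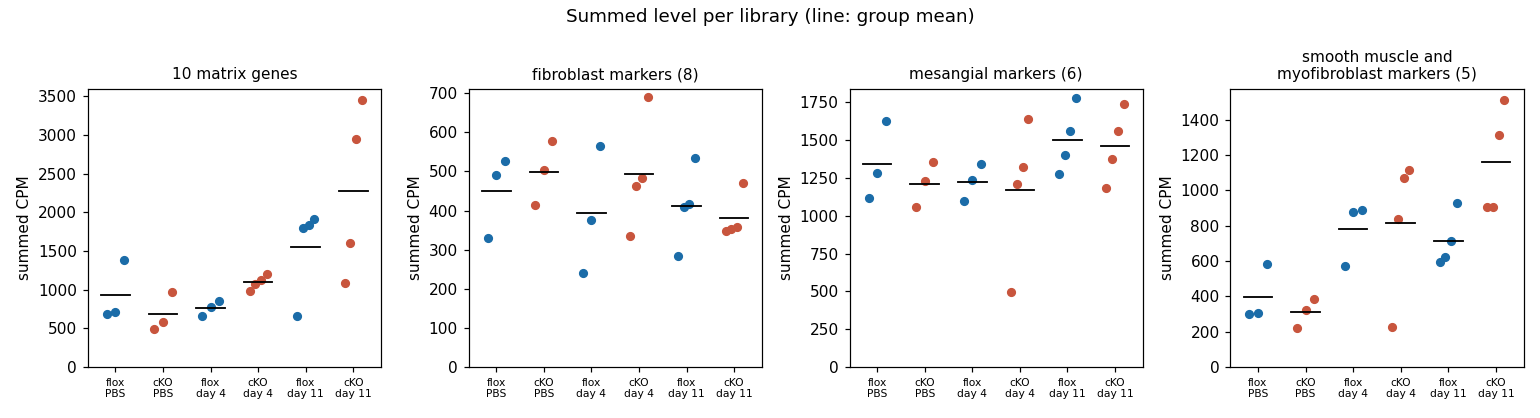
Summed CPM per library, by group, of the 10 matrix genes and of the marker lists of fibroblasts, of smooth muscle and myofibroblasts and of mesangial cells; each point is 1 mouse and the short bar is the group mean. The matrix sum reaches 3452 CPM in cKO at day 11 and the smooth muscle sum 1512 CPM, while the fibroblast sum stays between 240.3 and 689 CPM in all groups.

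Markers of the cells known to make this matrix did not all move with it. The 8 fibroblast markers (Pdgfra, Dpt, Dcn, Lum, Clec3b, Gsn, Pi16 and Mfap5) summed to 331 to 578 CPM under PBS, 240.3 to 689 CPM at day 4 and 285 to 535 CPM at day 11. Clec3b was at 0 in every PBS library and in every flox library, and Dpt was at 0 in flox PBS and in cKO day 4. In the day 11 average 5 of these 8 were above 0, with a median of 0.66. EdgeR called 0 of them (0.122% of all genes), 1 (Mfap5) was higher at an unadjusted p under 0.05 (6.17%), and DESeq2 called 2 of 7 higher (7.95% in either direction). The 6 mesangial markers (Pdgfrb, Itga8, Gata3, Des, Agtr1a and Serpine2) summed to 1056 to 1630.3 CPM under PBS and 1182 to 1778 CPM at day 11, with 2 of 6 above 0 and a median of −0.21. Among these 6 edgeR called 0, 1 was higher at an unadjusted p under 0.05, and DESeq2 called 1 higher. The former was Serpine2, named after its values were seen, with a mean of 577.5 ± 78.1 CPM under PBS (SD, n = 6) and 858.7 ± 175.1 CPM at day 11 (SD, n = 8).

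The smooth muscle and myofibroblast list (Acta2, Tagln, Myh11, Cnn1 and Actg2) summed to 222 to 583 CPM under PBS, 229 to 1117 CPM at day 4 and 596 to 1512 CPM at day 11. Of its 4 tested genes all 4 were above 0 at day 11 (median 1.74) and edgeR called 1 (0.122% of all genes): Acta2, smooth muscle actin, rose by 1.39 ± 0.28 (SE, adjusted p = 0.029), from 194 ± 69.4 CPM under PBS (SD, n = 6) to 522 ± 218 CPM (SD, n = 8). At day 4 all 4 were also above 0, with a median of 1.31, against 0.25 for the 10 matrix genes. There edgeR called 0 (0.0216% of all genes) and 3 were higher at an unadjusted p under 0.05 (5.36%). Acta2 stood at 1.23 ± 0.29 at day 4 (SE, adjusted p = 0.18). Actg2 had 0 reads in every group but cKO day 11. Median log2 fold changes of the other lists in the day 11 average were −0.42 for podocyte, −0.21 for endothelial, 1.65 for parietal, −0.38 for proximal tubule, −1.0 for distal tubule and 0.76 for macrophage markers. The summed level of the parietal markers changed little. Its group median was 88.9 CPM under PBS and 86.9 CPM at day 11 in flox, and 92.6 and 97.1 CPM in cKO. Of the 5 parietal markers 2 were higher and 1 lower at an unadjusted p under 0.05 by edgeR (6.17% and 2.94% of all genes). DESeq2 also called 2 higher and 1 lower (7.95% in either direction). Sums of macrophage markers were 120.0 to 389.5 CPM under PBS and 97.2 to 366 CPM at day 11. Sums of proximal tubule markers were 821 to 2794 CPM under PBS and 379 to 1668 CPM at day 11, and those of distal tubule markers 1063 to 2179 CPM and 287 to 1269.5 CPM. The part of these cell types in the matrix genes' differences was not tested. With the mean proximal tubule marker level as a covariate all 10 genes were above 0 in the day 11 average and 0 were called. All 6 proximal tubule markers were themselves below 0 in that average, so this fit cannot separate tubule content from stage. Distal tubule markers, of which 4 of 5 were lower at an unadjusted p under 0.05 by edgeR (2.94% of all genes), were not in the covariate.

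Across the 21 libraries the 10 genes tended to vary together. Of 45 pairs 42 had a Pearson r of log2 CPM above 0, with a median of 0.38 (range −0.23 to 0.70), and 8 pairs had a Benjamini-Hochberg adjusted permutation p under 0.05 by both Pearson's r and Spearman's rho. Libraries were permuted without regard to group, so a difference between groups that both genes share can also give a small p. The r within groups was not tested. The 2 type I chains gave the highest r, 0.70 (rho 0.64, adjusted p = 0.014 for both by permutation). It was also 0.70 without the 2 libraries farthest from the median of Col1a1 and 0.66 after each group's mean was removed. Col1a2 and Col3a1 had an r of 0.68 (rho 0.69, adjusted permutation p = 0.014 and 0.012), which was 0.62 without the 2 farthest libraries and 0.61 within groups. Col1a1 and Lox, a fibril chain and the enzyme that crosslinks it, had an r of 0.66 (rho 0.65, adjusted permutation p = 0.014 and 0.013), 0.59 without the 2 farthest and 0.57 within groups. Lox had 0 reads in 5 of the 21 libraries, and the 2 left out were those farthest in Col1a1, not in Lox. Col6a1 and Col6a2, whose products join in the same trimer, had an r of 0.05. With group means removed the median r over all pairs was 0.26. The difference between these medians was not tested. The 2 values of a pair share a library, with its scaling and depth, and the part of these in r was not tested.

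**Figure D5:**
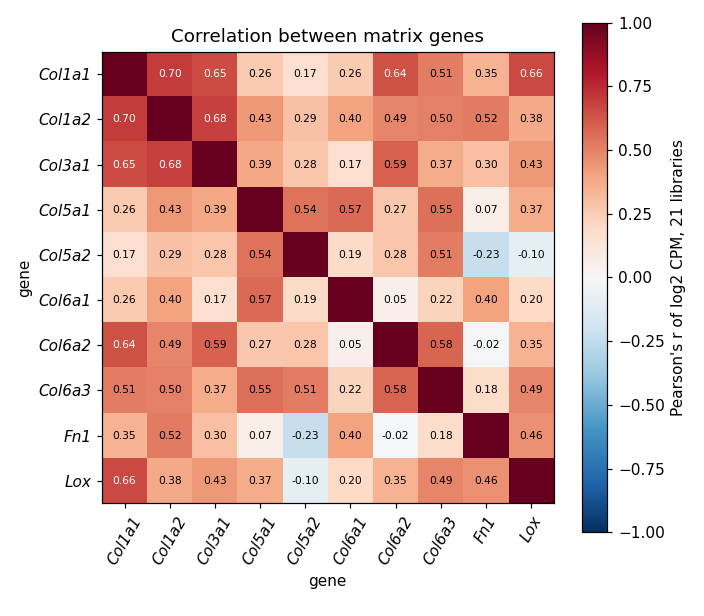
Pearson's r of log2 CPM between each pair of the 10 genes over 21 libraries, from −1 (blue) to 1 (red). The block of Col1a1, Col1a2 and Col3a1 holds values from 0.65 to 0.70, and Col6a1 with Col6a2 stands at 0.05.

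The genes most like the mean profile of the 10, among 4942 other genes of at least 4 mean log2 CPM, were named by Pearson's r over the 21 libraries, as a description with no test. They were Vim (0.80), Csrp1 (0.78), Fosl2 (0.76), Clic1 (0.76), Sparc (0.74), Ier3 (0.74), Cald1 (0.74) and Bgn (0.73), where the median r of all genes searched was 0.09. Vim, the intermediate filament protein vimentin, had 313 ± 122 CPM under PBS (SD, n = 6), 473 ± 232 CPM at day 4 (SD, n = 7) and 907 ± 247 CPM at day 11 (SD, n = 8). Sparc, which binds collagen, had 2688 ± 600.5 CPM under PBS, 4160.1 ± 1037 CPM at day 4 and 6261 ± 672 CPM at day 11 (SD, n = 6, 7 and 8). Csrp1 and Cald1, both linked to the actin cytoskeleton, reached 797 ± 162 CPM and 2060.0 ± 399 CPM at day 11, from 388 ± 87.4 CPM and 1099 ± 225 CPM under PBS (SD, n = 8 and 6). With median-ratio size factors 7 of the 8 genes stayed among the top 8, Bgn being the exception.

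Other genes of collagen maturation, assembly, turnover and sensing were counted from a list of 114, of which 96 were tested. In the day 11 average 68 of the 96 were above 0, with a median log2 fold change of 0.43 against 0.07 for all genes. EdgeR called 0 of them (0.122% of all genes), 17 had an unadjusted p under 0.05 and were higher (6.17%), and 2 were lower (2.94%). DESeq2 called 17 of 97 higher and 2 lower (7.95% of all genes in either direction). At day 4, 63 were above 0 with a median of 0.30. EdgeR called 0 of them, 4 were higher and 1 lower (5.36% and 3.92% of all genes) at an unadjusted p under 0.05, and DESeq2 called 8 of 96 higher and 2 lower (9.07% of all genes in either direction). Values named next are means over both genotypes with SD, for 6 PBS and 8 day 11 libraries.

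Among 24 tested genes of collagen processing 20 were above 0 at day 11 (median 0.46). Plod2, a lysyl hydroxylase that prepares collagen for crosslinking, had 89.2 ± 35.9 CPM under PBS and 171 ± 54.1 CPM at day 11 (log2 fold change 0.99 ± 0.35, adjusted p = 0.34). P4hb, a subunit of prolyl 4-hydroxylase, had 144 ± 27.0 and 187 ± 33.8 CPM (0.37 ± 0.26, adjusted p = 0.86). The procollagen N-proteinases Adamts2 and Adamts14 were scarce: Adamts2 had 3.67 ± 5.02 and 12.5 ± 16.9 CPM, and Adamts14 had 0 reads in all PBS libraries and 3.71 ± 6.27 CPM at day 11. Of the 4 tested crosslinking enzymes beside Lox 3 were above 0 (median 1.18). Loxl2, a lysyl oxidase relative, had 37.7 ± 32.8 and 126 ± 46.1 CPM (1.70 ± 0.66, adjusted p = 0.36), and Loxl1 had 10.0 ± 7.79 and 37.6 ± 19.6 CPM (1.90 ± 1.34, adjusted p = 0.85). The transglutaminase Tgm2 had 175 ± 61.5 and 276 ± 75.0 CPM (0.65 ± 0.30, adjusted p = 0.50), and Loxl3 was lower, at 7.96 ± 12.1 and 3.39 ± 7.96 CPM (−1.86 ± 2.04, adjusted p = 1).

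Of 15 other interstitial collagens 8 were tested, and 6 were above 0 (median 0.57). Col5a3, the third type V chain, had 0 reads in all 6 PBS libraries and 24.0 ± 32.7 CPM at day 11 (adjusted p = 0.21). Col16a1 had 7.68 ± 12.5 and 3.89 ± 4.74 CPM, while its fitted log2 fold change, averaged over genotypes, was of the other sign (3.57 ± 2.11, adjusted p = 0.69). Col6a5, a further type VI chain, had 3.21 ± 7.78 and 0.248 ± 0.701 CPM (−3.37 ± 2.12, adjusted p = 0.76). Of 8 small proteoglycans tested 3 were above 0 (median −0.48). Biglycan (Bgn), which binds collagen fibrils, had 472 ± 143 and 716 ± 153.5 CPM (0.61 ± 0.21, adjusted p = 0.34). Fibromodulin (Fmod), another fibril-binding proteoglycan, went the other way, with 23.3 ± 13.7 and 0.323 ± 0.912 CPM (−8.31 ± 2.50, adjusted p = 0.31). Versican (Vcan), a large proteoglycan, had 4.82 ± 9.60 and 17 ± 25.6 CPM (5.90 ± 2.67, adjusted p = 0.49). Among 15 tested elastic fibre genes 11 were above 0 (median 0.43), and fibrillin 1 (Fbn1) had 17.7 ± 20 and 131 ± 77.2 CPM (3.19 ± 1.49, adjusted p = 0.54). Mfap5, a microfibril protein also among the fibroblast markers, had 1.96 ± 4.81 and 11.3 ± 18.5 CPM (5.53 ± 2.69, adjusted p = 0.54).

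Among 16 tested genes of matrix turnover 10 were above 0 at day 11 (median 1.24). Timp2, a metalloproteinase inhibitor, had 1223 ± 158 CPM under PBS and 1918 ± 397 CPM at day 11 (0.65 ± 0.15, adjusted p = 0.10), and its relative Timp1 had 4.01 ± 9.82 and 39.1 ± 32.4 CPM (7.27 ± 2.30, adjusted p = 0.34). Mmp14, a membrane-bound collagenase, had 9.89 ± 12.0 and 55.6 ± 43.9 CPM (2.87 ± 1.09, adjusted p = 0.35). Among 21 tested matrix receptors and related surface proteins 15 were above 0 (median 0.22). Itgb1, the integrin chain shared by the collagen receptors, had 787 ± 126 and 1143 ± 132 CPM (0.54 ± 0.16, adjusted p = 0.31), and Itgb3 had 1.72 ± 4.21 and 20 ± 13.9 CPM (6.99 ± 2.53, adjusted p = 0.34).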

How the data were processed

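Glomerular RNA from 21 mice was sequenced with QuantSeq FWD, which yields tags at the 3′ end of polyadenylated transcripts, and each library came from 1 mouse. The deposited tables held estimated counts per gene, per the file headers, not normalized, and TPM values, which were deposited beside them and not used here. FastQC, fastp, DRAGEN and Picard are listed in the submitters' processing notes. Of their versions, the strand setting, duplicate handling and annotation release the sources used here say nothing. Of the deposited estimated counts above 0, 95.2% were whole within 0.005, and all were rounded to whole numbers. Identifiers were matched to GENCODE M21 (GRCm38) for 35513 of 35598 genes (99.8%), and 85 were not matched.

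Genes were filtered with edgeR 4.0.16 (filterByExpr, minimum count 10), which left 13898. Libraries were scaled by TMM (factors 0.751 to 1.12), and the 6 group means were fitted in 1 model (15 residual degrees of freedom) with the robust quasi-likelihood F test. P-values were adjusted by Benjamini-Hochberg over all 13898 genes, and a gene was called at an adjusted p under 0.05. The standard error (SE) is the log2 fold change divided by the root of F. Log2 CPM used a prior count of 2, and pair correlations used 100000 permutations. Library totals of 4550550 to 24295712 reads set the counting precision, and the biological coefficient of variation was 1.66.

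The 10 genes, the gene lists and the marker lists were chosen with earlier results of these data known. All 10 genes are named in the nephritis comparisons. Where genotypes or stages are compared, the 2 with the smallest p are named, and in the wider lists the first 2 to 4 of each group in order of the day 11 p. A gene of the matrix turnover list that this rule would name is not reported here. Alternatives were DESeq2 1.42.0, median-ratio size factors, no filter, only the compared groups, a replicate block, each library left out, cKO day 4 and day 11 replicates 3 left out together, and the proximal tubule marker level as covariate. The script was tested on simulated counts with less spread than these data and with changes only in the more abundant genes. That test does not show whether differences in the 10 genes could be called here. The p-values of the fits set differences between group means against the spread between mice.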

Additional observations from a re-analysis of the deposited data

Results flagged for a closer look

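Within the 3 groups of 4 libraries each gene was checked for a library far from the other 3, by the gap to its nearest neighbour against the whole range. Of 30 gene-by-group sets 5 held one, and chance marks about 1 in 20 where values are normally distributed. The CPM of these genes are skewed, with values at 0, so the 5 cannot be set against that rate. Col3a1 had 138 CPM in cKO day 11 replicate 1, below 246 to 266 CPM in the other 3. Col5a2 had 3.59 CPM in cKO day 4 replicate 1, above 0 to 0.311 CPM in the other 3, and all 4 were below the cKO PBS libraries. Col6a1 had 16.1 CPM in flox day 11 replicate 2, below 41.9 to 46.1 CPM. Col6a2 had 163 CPM in flox day 11 replicate 3, above 0.65 to 23.7 CPM. Col6a3 had 334 CPM in cKO day 11 replicate 4, above 33.3 to 78.8 CPM. These 5 libraries are 5 different mice.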

How the results depend on the processing

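The count of called genes among the 10 was 0 in each of the 13 comparisons and stayed 0 with median-ratio size factors, with the proximal tubule covariate, with the replicate block and without cKO day 4 and day 11 replicates 3. DESeq2 called 1 in cKO at day 4, 3 in cKO at day 11, 4 in the day 11 average, 1 for day 11 against day 4 in flox and 2 in cKO. No filter, and only the compared groups, each called 1 in the day 11 average. Leaving out single libraries gave 0 to 1 in cKO at day 11 and 0 to 2 in the day 11 average. The cause of these changes was not tested. Shares of all genes called are not given for the edgeR alternatives, so the passes of Col3a1, Col1a2 and Col1a1 above stand without them. Log2 fold changes reversed in 39 fits, all of values under the threshold. With the replicate block these were Col5a2 in flox at day 4 (−0.35), Col1a1 in flox at day 11 (−0.04), and Col5a1 (−0.84) and Col6a3 (0.06) in the day 4 average. With the covariate they were Lox in flox at day 4 (0.22) and Col5a1 (−0.35) and Col6a1 (−0.53) in the day 4 average. Without cKO day 4 and day 11 replicates 3 they were Col5a2 in cKO at day 11 (−0.15) and Col6a3 in the day 4 average (0.19).

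With single libraries left out, values in flox at day 4 ranged from −0.86 to 0.04 (Col1a1), −1.11 to 2.36 (Col5a1), −0.80 to 1.23 (Col5a2), −4.08 to 1.68 (Col6a1), −1.36 to 0.66 (Fn1) and −1.88 to 4.69 (Lox). In flox at day 11 they ranged from −0.04 to 0.90 (Col1a1) and −0.16 to 6.02 (Lox), in cKO at day 4 from −1.30 to 0.95 (Col6a3) and in cKO at day 11 from −0.28 to 0.96 (Col5a2). The day 4 averages ranged from −0.02 to 0.46 (Col1a1), −1.12 to 0.63 (Col5a1), −1.04 to 1.84 (Col6a1) and −0.44 to 0.68 (Col6a3), and the day 11 interaction of Col6a1 from −0.64 to 2.96. The labels do not say that replicate numbers pair mice across groups, so the block is given here only. Deviations from group means over all tested genes had a median correlation of −0.0013 over 48 same-numbered pairs and −0.0014 over 135 others. This check could miss a pairing that acted on few genes. Libraries with under 10 reads were most frequent for Lox, Col5a1 and Col5a2, at 7, 5 and 4 of 21. The shallowest library, cKO day 11 replicate 3 (4550550 reads in all), was not among these, with 138, 54 and 198 reads.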
